A study of Homo sapiens with 12 samples.

Results

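NANOG and 9 other regulators that mark pluripotent stem cells, namely SALL4, PRDM14, FOXD3, ZFP42, ZSCAN10, DPPA4, L1TD1, USP44 and POLR3G, were taken by gene name from the RNA-Seq tables, which gave 10 of the 58575 genes in the count table. Expression had been measured in 12 libraries of 201B7, an established line of human induced pluripotent stem cells (iPSCs) whose tissue of origin is labelled as skin, with 3 libraries for each of 4 culture conditions and all cells harvested on Day 5. Cond 1, the control, received standard maintenance culture in StemFit medium. Cond 2, labelled low nutrient, received StemFit that had first been held at 56 °C for 30 min. Cond 3, labelled differentiation, received DMEM with 10% FBS, MEM NEAA and GlutaMax in place of StemFit. The study places the start of the heated medium at Day 2 and that of FBS at Day 4. Exposure time therefore differed between Cond 2 and Cond 3, and it cannot be told apart from the medium when they are compared. Cond 4, labelled physical stimulus, received the maintenance culture of Cond 1 after the cells had been pipetted 20 times at passage. The labels name no transgene or deletion that sets the conditions apart, and all 4 conditions came from the same line, so the results describe 1 line. The question was how the culture condition changed the pluripotency state. The replicates are described as wells of 3 plates in the series design and as technical replicates in the study, so p-values measure the spread between these libraries, which may be technical.

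The human iPSC is in the primed state of pluripotency, in which a network of transcription factors holds the cell ready for any germ layer. NANOG is a homeodomain factor that works beside OCT4 and SOX2 and depends on ACTIVIN/NODAL and FGF signals in human cells. SALL4 is a zinc-finger factor that recruits the NuRD deacetylase complex. PRDM14 represses early lineage genes, FOXD3 is a forkhead factor shared by pluripotent cells and neural crest, and ZFP42 (REX1) and ZSCAN10 are zinc-finger factors long used as markers of the undifferentiated state. DPPA4 is a chromatin protein that acts with its partner DPPA2, L1TD1 is an RNA-binding protein derived from a LINE-1 retrotransposon, USP44 removes ubiquitin from histone H2B, and POLR3G is the stem cell form of an RNA polymerase III subunit whose paralogue POLR3GL is used in most differentiated cells.

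The 250 bases before the start site were taken from RefSeq promoters for GRCh38.p14 for 6 members, NANOG, FOXD3, ZFP42, ZSCAN10, DPPA4 and L1TD1. No window was taken for SALL4, PRDM14, USP44 and POLR3G. Windows of 3 members are printed because these genes had different profiles over the conditions. The NANOG window is chr12:7789152-7789401 on the plus strand, which lies inside the GENCODE gene span because a GENCODE transcript starts further upstream. The FOXD3 window is chr1:63322317-63322566 on the plus strand and the DPPA4 window is chr3:109337547-109337796 on the minus strand. Capitals mark the octamer core and the SOX core in the NANOG window, and a GC box in the FOXD3 and DPPA4 windows.
NANOG: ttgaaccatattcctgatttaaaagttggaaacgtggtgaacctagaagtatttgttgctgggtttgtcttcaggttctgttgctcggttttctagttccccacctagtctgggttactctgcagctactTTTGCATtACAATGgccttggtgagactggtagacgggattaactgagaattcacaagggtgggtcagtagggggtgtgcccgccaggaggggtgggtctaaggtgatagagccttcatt
FOXD3: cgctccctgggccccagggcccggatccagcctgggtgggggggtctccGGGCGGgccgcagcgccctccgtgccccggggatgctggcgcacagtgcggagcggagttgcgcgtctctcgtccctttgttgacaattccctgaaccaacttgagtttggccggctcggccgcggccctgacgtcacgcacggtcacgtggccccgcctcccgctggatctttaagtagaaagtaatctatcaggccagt
DPPA4: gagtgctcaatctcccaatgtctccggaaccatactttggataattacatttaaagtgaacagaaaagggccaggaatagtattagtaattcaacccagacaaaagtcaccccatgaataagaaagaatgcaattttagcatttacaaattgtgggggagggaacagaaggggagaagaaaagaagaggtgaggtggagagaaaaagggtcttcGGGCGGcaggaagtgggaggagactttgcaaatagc

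6 motifs were searched on both strands of each window. They were the octamer core ATGCAAA (bound by POU factors such as OCT4), the SOX core CATTGT, the ETS core CCGGAAG, the GC box GGGCGG, the TATA box TATAAA and the LEF/TCF core CTTTGAT. The NANOG window held the octamer core on its minus strand, beginning 120 bases before the start, and the SOX core on the same strand 112 bases before the start, with 1 base between them. Of 35116 RefSeq windows of this length, 3.94% held the octamer core, 9.29% the SOX core and 0.541% both, and 2 windows held them 1 base apart in this order. The other 5 member windows held none of the 6 motifs except the GC box, which 42.6% of all windows hold. The FOXD3 and ZFP42 windows were rich in CpG, with 24 and 23 CpG dinucleotides, and the L1TD1 window held 12, whereas those of NANOG, ZSCAN10 and DPPA4 held 4, 3 and 3, beside a median of 11 over all windows. A motif match describes these letters and is no measurement of binding.

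The members lie on 8 chromosomes of GRCh38, in the GENCODE release 44 annotation. NANOG (ENSG00000111704) spans chr12:7787794-7799146 on the plus strand. SALL4 (ENSG00000101115) spans chr20:51782331-51802521 on the minus strand. PRDM14 (ENSG00000147596) spans chr8:70051651-70071693 on the minus strand. FOXD3 (ENSG00000187140) spans chr1:63322567-63325128 on the plus strand and has a single annotated transcript. ZFP42 (ENSG00000179059) spans chr4:187995771-188005046 on the plus strand. ZSCAN10 (ENSG00000130182) spans chr16:3088890-3099295 on the minus strand. DPPA4 (ENSG00000121570) spans chr3:109326144-109337546 on the minus strand. L1TD1 (ENSG00000240563) spans chr1:62194849-62212328 on the plus strand, on the same chromosome arm as FOXD3. USP44 (ENSG00000136014) spans chr12:95516560-95551476 on the minus strand. POLR3G (ENSG00000113356) spans chr5:90471748-90514557 on the plus strand.

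The cells were checked against markers of their labelled type before the members were compared. SOX2, LIN28A, DNMT3B, TDGF1 and PODXL, the pluripotent cell markers, had mean levels between 490 and 2117 TPM (reads per length of the gene, put on a common total so that libraries and genes can be compared) in every condition. These markers were picked from a list of 26 pluripotency network genes, 25 of them tested. Of these, 13 were lower and 8 higher in Cond 2, and 7 were lower and 11 higher in Cond 3. TDGF1 itself fell by 1.499 on the log2 scale in Cond 2, so the levels do not show an unchanged state. Library totals ran from 16441148 to 21871503 counts. On the members themselves the read depth ranged from 92 reads, for ZFP42 in a Cond 4 library, to 19392 reads, for DPPA4 in a Cond 1 library. At 92 reads counting error alone is 10.4% of the value, and at the lowest DPPA4 count it is 0.950%.

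Against Cond 1, 7 of the 10 members were lower and 1 was higher in Cond 2, where 10.1% and 10.8% of all 17747 genes tested were lower and higher. In Cond 3, 5 members were lower and 2 were higher, where the shares over all genes were 18.8% and 19.5%. No member passed in Cond 4, where 0.0282% of all genes passed in either direction. A member was called higher or lower when the quasi-likelihood test of edgeR gave it an adjusted p under 0.05, with the Benjamini-Hochberg correction made over every gene tested. Over the 10 members the log2 fold change had a median of -0.43 for Cond 2. For Cond 3 and Cond 4 the medians were -0.24 and 0.015, and in each comparison that of all genes was within 0.0064 of 0. All 10 members passed the filter on low counts. A fall of a member over a culture can come from fewer cells that express it or from less RNA per cell, which bulk libraries cannot tell apart.

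**Figure D1:**
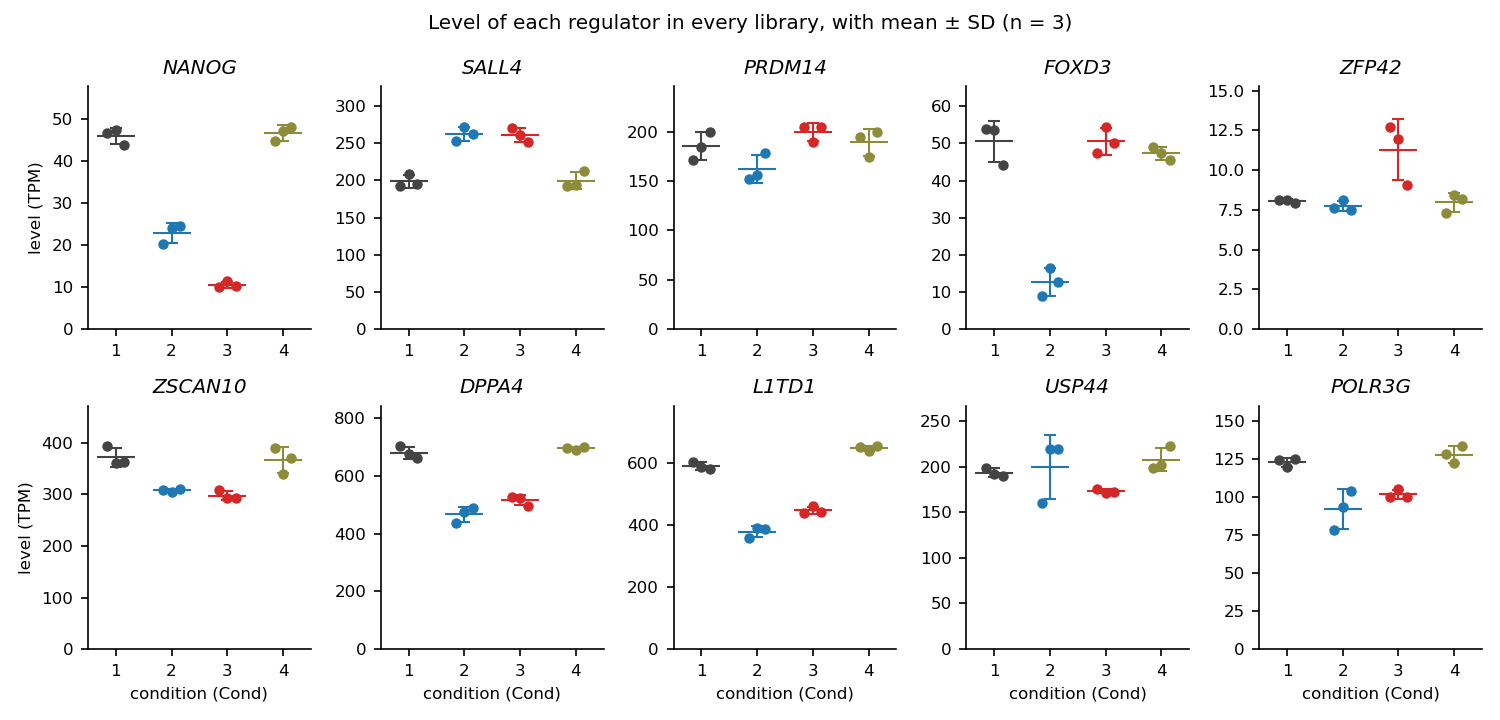
Level of each of the 10 regulators (TPM, vertical axis from 0) in the 3 libraries of Cond 1 to Cond 4. Points are libraries, the wide bar is the mean and the error bar the SD. NANOG falls from 45.9 TPM in Cond 1 to 10.5 TPM in Cond 3, whereas the low points of FOXD3 are in Cond 2.

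NANOG was lower in both changed media, and lower in serum medium than in heated medium. It was at 46.7, 47.2 and 43.6 TPM in the Cond 1 libraries, at 20.2, 24.0 and 24.6 TPM in Cond 2, at 9.93, 11.3 and 10.2 TPM in Cond 3 and at 44.6, 47.1 and 48.1 TPM in Cond 4. The 3 ranges of Cond 1, Cond 2 and Cond 3 did not overlap, and that of Cond 4 lay across that of Cond 1. NANOG fell 2.12-fold in Cond 2 (95% interval of the log2 fold change -1.25 to -0.92) and 4.46-fold in Cond 3 (-2.33 to -1.98). Between the changed media the level was lower in Cond 3 (log2 fold change -1.07 ± 0.087 SE, adjusted p = 1.75e-09, edgeR). By an exact two-sided permutation test each of these 3 differences had p = 0.1, the smallest that 3 libraries against 3 allow.

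Reads on NANOG are partly shared with copies of the gene. Of the 31-base words of its exons, 55.8% occur elsewhere on the primary chromosomes, against 0 to 17.8% for the other 9 members. The 11 genes named as NANOG pseudogenes, by NANOGP and a number, were taken by name and not by their annotated type. Together they received between 5.17% and 12.3% of the reads counted on NANOG and on them. The highest share was in replicate 2 of Cond 3. With the pseudogene reads added, NANOG stayed lower in both changed media. How reads with several matches were counted is not given in the sources used here.

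FOXD3 showed a different profile, with a fall in the heated medium and none detected in the serum medium. Its levels were 53.9, 53.6 and 44.3 TPM in Cond 1, 8.82, 16.4 and 12.6 TPM in Cond 2, 47.3, 54.5 and 50.04 TPM in Cond 3 and 48.9, 47.5 and 45.5 TPM in Cond 4. Every Cond 2 library was below every library of the other conditions, which overlapped each other. FOXD3 fell 4.24-fold in Cond 2 (log2 fold change -2.08 ± 0.14 SE, adjusted p = 1.55e-10, edgeR), the largest fall among the 10 members there. Its log2 fold change in Cond 3 was -0.024, with a 95% interval from -0.28 to 0.23 (adjusted p = 0.905, edgeR), and the direct comparison put Cond 3 above Cond 2 by 4.17-fold (adjusted p = 9.97e-11, edgeR). Leaving out single libraries gave a log2 fold change between -2.32 and -1.90 for Cond 2.

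FOXD3-AS1, a long noncoding RNA read from the opposite strand, shares 618 exon bases with FOXD3 and was examined after its values had been seen. Its mean level was above that of FOXD3 in each condition, and the FOXD3 to FOXD3-AS1 ratio was 0.227 ± 0.0150 in control cells and 0.193 ± 0.0405 in heated medium (SD, n = 3 each). FOXD3-AS1 fell in both media, by 1.88 on the log2 scale in Cond 2 (adjusted p = 2.27e-12, edgeR) and by 0.77 in Cond 3 (adjusted p = 6.68e-07, edgeR). In Cond 3 the ratio was 0.381 ± 0.0424 (SD, n = 3), above every Cond 1 library (exact permutation p = 0.1). The library kit keeps the strand of each RNA, but the strand setting of the counting is not given in the sources used here, so reads in the shared bases may not be separated between the 2 genes.

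SALL4 was the member that rose in both media. Its levels were 193, 208 and 195 TPM in Cond 1, 253, 272 and 262 TPM in Cond 2, 270, 260 and 251 TPM in Cond 3 and 192, 194 and 212 TPM in Cond 4. The Cond 2 and Cond 3 libraries lay above all 6 others and overlapped each other. The rise was 1.25-fold in Cond 2 (adjusted p = 6.96e-05, edgeR) and 1.29-fold in Cond 3 (adjusted p = 6.06e-06, edgeR). The difference between the media was 0.047 on the log2 scale with a 95% interval from -0.059 to 0.15 (adjusted p = 0.510, edgeR).

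PRDM14 changed little. Its mean level was 185 ± 13.9 TPM in Cond 1, 162 ± 13.97 TPM in Cond 2, 200 ± 8.95 TPM in Cond 3 and 189 ± 13.7 TPM in Cond 4 (SD, n = 3 each). In the order of mean levels, Cond 2, Cond 1, Cond 4 and Cond 3, each condition's range overlapped that of the next. PRDM14 was 1.21-fold lower in Cond 2 (adjusted p = 0.00637, edgeR), a call that was lost without replicate 3 of Cond 1 (log2 fold change -0.21, adjusted p = 0.0614, edgeR) and with limma on TPM (adjusted p = 0.0914). Between the media it was 1.28-fold higher with serum (adjusted p = 3.58e-04, edgeR), with no overlap of the libraries, and that call held in each alternative tried.

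ZFP42, also known as REX1, had the lowest mean level of the members in Cond 1, Cond 2 and Cond 4, overlapped NANOG in Cond 3, and was called higher than the control in the serum medium. It was at 8.15, 8.15 and 7.91 TPM in Cond 1, at 7.61, 8.12 and 7.51 TPM in Cond 2, at 12.7, 11.98 and 9.09 TPM in Cond 3 and at 7.33, 8.45 and 8.16 TPM in Cond 4. All 3 Cond 3 libraries exceeded the 9 others. The 1.37-fold rise in Cond 3 (adjusted p = 0.0343, edgeR) rested on 102 to 207 reads per library and was no longer called without any one of 5 of the 6 libraries compared, with adjusted p between 0.0135 and 0.152 over the 6 left-out libraries. Against Cond 2 the level in Cond 3 was 1.52-fold higher (adjusted p = 0.00665, edgeR), and this call held with each single library left out.

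ZSCAN10 fell in both media, and no difference between the media was detected. Its mean level was 372 ± 18.5 TPM in Cond 1, 308 ± 3.12 TPM in Cond 2, 298 ± 8.89 TPM in Cond 3 and 366 ± 25.4 TPM in Cond 4 (SD, n = 3 each). It was 1.28-fold lower in Cond 2 (adjusted p = 3.47e-05, edgeR) and 1.27-fold lower in Cond 3 (adjusted p = 2.38e-05, edgeR). The log2 difference between the media was 0.0084, with a 95% interval from -0.10 to 0.12 (adjusted p = 0.927, edgeR).

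DPPA4 and L1TD1 were the most abundant members per length, and both were lowest in the heated medium. DPPA4 was at 703, 677 and 662 TPM in Cond 1, at 439, 476 and 489 TPM in Cond 2, at 528, 525 and 496 TPM in Cond 3 and at 696, 690 and 702 TPM in Cond 4. L1TD1 was at 606, 590 and 582 TPM in Cond 1, at 359, 391 and 389 TPM in Cond 2, at 441, 462 and 443 TPM in Cond 3 and at 652, 639 and 655 TPM in Cond 4. For both genes Cond 2 lay below Cond 3 and Cond 3 below Cond 1, with no overlap of libraries. DPPA4 was 1.55-fold lower in Cond 2 (adjusted p = 2.30e-10, edgeR) and 1.34-fold lower in Cond 3 (adjusted p = 5.96e-08, edgeR). L1TD1 was 1.66-fold lower in Cond 2 (adjusted p = 2.08e-11, edgeR) and 1.34-fold lower in Cond 3 (adjusted p = 6.82e-08, edgeR). The direct comparison of the media put Cond 3 above Cond 2 by 0.20 on the log2 scale for DPPA4 (adjusted p = 7.49e-04, edgeR) and by 0.30 for L1TD1 (adjusted p = 9.84e-06, edgeR).

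USP44 passed the test in none of the comparisons. It was at 199, 192 and 189 TPM in Cond 1, at 160, 220 and 220 TPM in Cond 2, at 176, 171 and 172 TPM in Cond 3 and at 199, 202 and 222 TPM in Cond 4. The Cond 2 libraries lay on both sides of Cond 1, with replicate 1 below and the other two above, and the Cond 3 libraries were below those of Cond 1. Relative to Cond 1 the Cond 3 value was -0.19 on the log2 scale, with a 95% interval from -0.34 to -0.034, and its adjusted p of 0.0502 (edgeR) was just over the threshold. It was called with no filter on low counts (adjusted p = 0.00679, edgeR) and with the 6 libraries compared alone (adjusted p = 0.00387, edgeR). The fit with the replicate number as a block, given at the end, called it too. The difference between Cond 3 and Cond 2 was -0.15 on the log2 scale (adjusted p = 0.131, edgeR), and without replicate 1 of Cond 2 it was -0.27 (adjusted p = 4.01e-04, edgeR).

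POLR3G was lower in both media. Its levels were 124, 119 and 125 TPM in Cond 1, 78.4, 93.6 and 104 TPM in Cond 2, 99.8, 105 and 100.2 TPM in Cond 3 and 128, 122 and 133 TPM in Cond 4. The libraries of both media lay below those of Cond 1 and overlapped each other. POLR3G was 1.42-fold lower in Cond 2 (adjusted p = 9.60e-06, edgeR) and 1.23-fold lower in Cond 3 (adjusted p = 0.00146, edgeR). In Cond 3 its level was 1.152-fold that in Cond 2 (adjusted p = 0.0249, edgeR), but without replicate 1 of Cond 2 the adjusted p was 0.174 (edgeR) and with the 6 libraries alone 0.0525 (edgeR). POLR3G shares 260 exon bases with MBLAC2 on the opposite strand, a gene noted after its values had been seen, at 5.68 to 8.93 TPM over the 12 libraries.

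**Figure D2:**
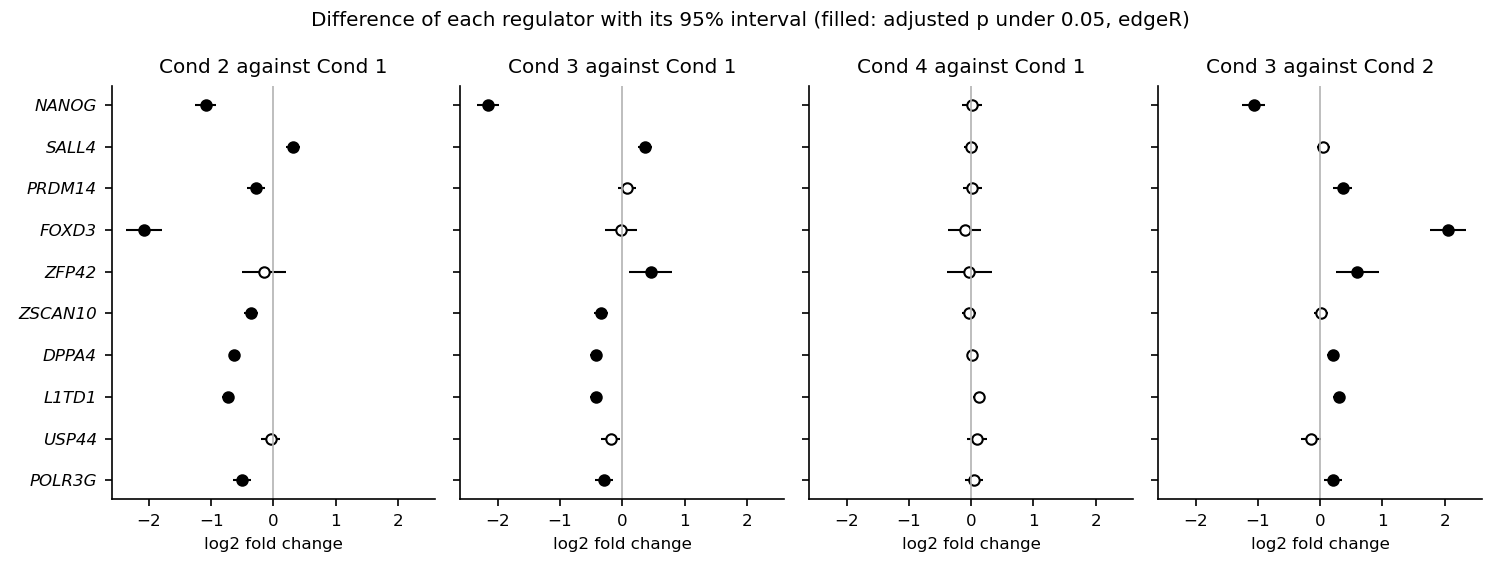
Log2 fold change of each regulator (horizontal axis) with its 95% interval in the 4 comparisons, filled where the adjusted p from edgeR was under 0.05. NANOG lies furthest left in Cond 3 against Cond 1 at -2.16 and FOXD3 in Cond 2 against Cond 1 at -2.08, and all 10 points of Cond 4 are open.

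The pair of replicate libraries that differed most was in Cond 2. A chi-square per gene between replicate libraries was between 4.18 and 10.2 over 12 pairs, and the highest value joined replicates 1 and 3 of Cond 2. After normalization, replicate 1 of Cond 2 was the lowest library of its condition for 6 of the 10 members and for 36.5% of all genes tested. Without it, 7 members were lower and 1 was higher in Cond 2, the same counts as with it.

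Past a fold change of 2, 2 members were lower in Cond 2, NANOG and FOXD3, where 2.50% of all genes were. In Cond 3 this held for NANOG alone, where 3.31% of all genes were lower past this fold. In the direct comparison of Cond 3 with Cond 2, NANOG was lower and PRDM14, FOXD3, ZFP42, DPPA4, L1TD1 and POLR3G were higher, while 19.2% of all genes were lower and 19.0% higher. The 2 comparisons with Cond 1 share its libraries, so the values of a gene in them are not independent. Among the 45 pairs of members, DPPA4 and L1TD1 had the nearest profiles, with log2 fold changes in Cond 2, Cond 3 and Cond 4 that differed by at most 0.10, and NANOG and ZFP42 had the most distant, differing by up to 2.61.

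**Figure D3:**
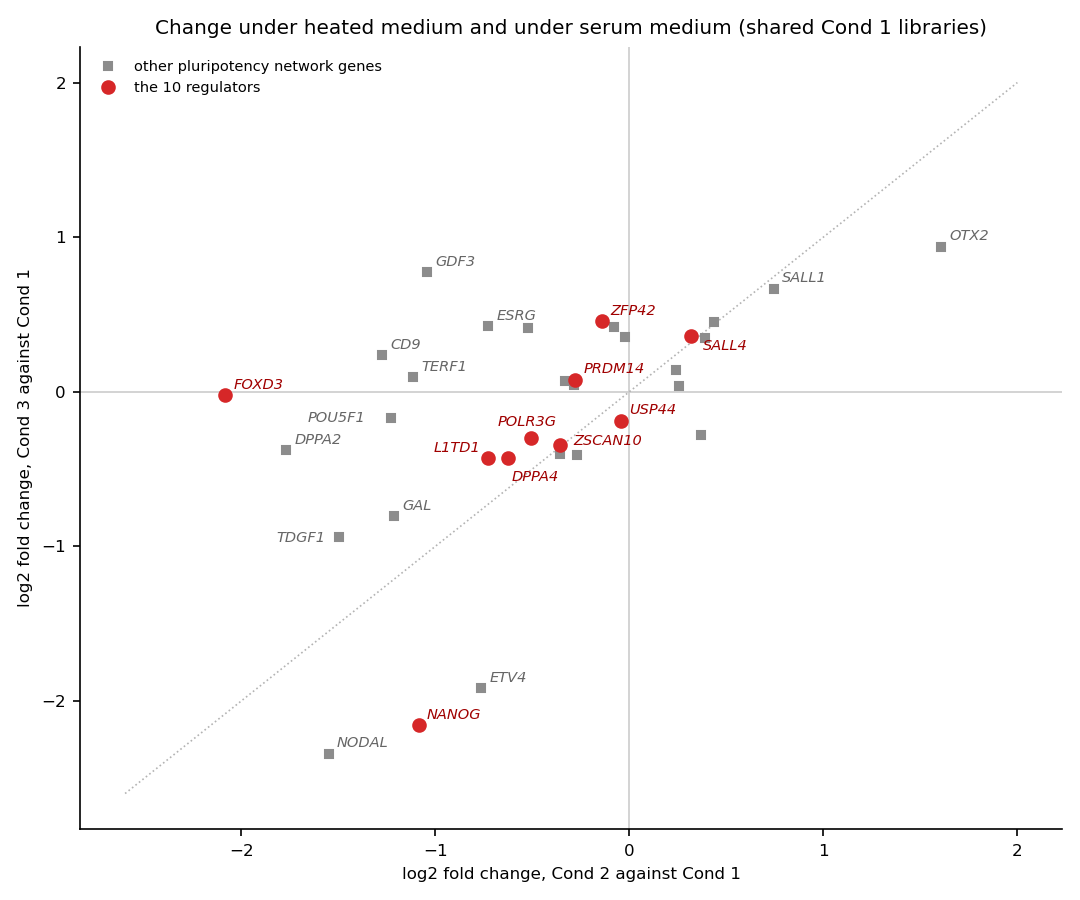
Log2 fold change against Cond 1 in Cond 2 (horizontal) and in Cond 3 (vertical) for the 10 regulators (red circles) and 24 of the 25 other pluripotency network genes tested, 1 not being shown (grey squares, named where either value exceeds 0.6 in size). Points on the dotted line have equal values, FOXD3 lies far to the left at -2.08 and -0.024, and NANOG lies below the line at -1.09 and -2.16.

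In Cond 4, no member passed the test. All 10 intervals of the fold change lay between 0.767 and 1.25, both from ZFP42. NANOG was at 1.01-fold of Cond 1 with a 95% interval from 0.902 to 1.13. L1TD1 was 1.09-fold higher (95% interval 1.02 to 1.16), and its 3 libraries lay above those of Cond 1. In Cond 4 it alone among the members had an unadjusted edgeR p under 0.05, at 0.0128, as did 6.21% of all genes, and after adjustment the value was 0.770. USP44 libraries in Cond 4 also lay above those of Cond 1, which makes 2 members where 6.75% of all genes did so, and USP44 did not pass the test either (log2 fold change 0.092, adjusted p = 0.902, edgeR). Of all genes, 5 passed by edgeR and 12 by DESeq2, and DESeq2 called 0 of the 10 members.

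The wider pluripotency network was described with 26 further genes, of which 25 were tested. In Cond 2, 13 were lower and 8 higher, with a median log2 fold change of -0.33, and in Cond 3, 7 were lower and 11 higher, with a median of 0.094. Of all genes, 10.1% were lower and 10.8% higher in Cond 2, and 18.8% and 19.5% in Cond 3. The counts of the later gene and marker lists stand beside the same shares. DPPA2, NODAL and TDGF1 fell in Cond 2, and NODAL, ETV4 and TDGF1 fell in Cond 3. NODAL, the TGF-beta family ligand that maintains primed cells, fell by 1.55 on the log2 scale in Cond 2 (adjusted p = 0.00622, edgeR) and by 2.34 in Cond 3 (adjusted p = 1.16e-04, edgeR). TDGF1, the NODAL co-receptor, fell by 1.499 in Cond 2 and by 0.94 in Cond 3, from 1299 ± 73.0 TPM in Cond 1 (SD, n = 3). ETV4, an ETS factor induced by FGF signalling, fell by 1.92 in Cond 3, from 120 ± 13.5 to 32.2 ± 2.06 TPM (SD, n = 3). OTX2, a homeodomain factor, rose by 1.61 in Cond 2. None of these 25 genes passed in Cond 4.

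SOX2, a core factor that acts beside NANOG, rose in both media. It was at 908 ± 30.1 TPM in Cond 1, 1304 ± 25.1 TPM in Cond 2 and 1263 ± 7.93 TPM in Cond 3 (SD, n = 3 each). SOX2 rose by 0.44 on the log2 scale in Cond 2 (adjusted p = 5.37e-08, edgeR) and by 0.45 in Cond 3 (adjusted p = 1.89e-08, edgeR). POU5F1, which encodes OCT4, was counted at no more than 25 reads in any library. Of its 31-base words, 86.9% occur on alternate haplotype sequences of the assembly. Whether this lowered its counts was not tested, because the treatment of multiple matches is not given in the sources used here. Its log2 fold change was -1.23 in Cond 2 (adjusted p = 0.0584, edgeR) and -0.17 in Cond 3 (adjusted p = 0.796, edgeR). Neither passed the test.

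DPPA2, the partner of DPPA4, starts 9.63 kb downstream of it on the same strand and is its nearest tested protein-coding neighbour. DPPA2 was at 8.69 ± 1.22 TPM in Cond 1, 2.73 ± 1.47 TPM in Cond 2 and 6.80 ± 0.174 TPM in Cond 3 (SD, n = 3 each), on at most 72 reads. It fell by 1.77 on the log2 scale in Cond 2 (adjusted p = 4.86e-04, edgeR), where DPPA4 fell by 0.63. In Cond 3 its log2 fold change was -0.38 (adjusted p = 0.366, edgeR), beside -0.43 for DPPA4.

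DPPA3 and SLC2A14 were the nearest tested neighbours of NANOG. DPPA3, a maternal factor of the germ line and naive cells, lies 70.2 kb away, with 22 to 26 reads in the Cond 2 libraries and 1 to 10 in those of Cond 1, and rose there (log2 fold change 2.19 ± 0.68 SE, adjusted p = 0.0239, edgeR). It was counted at 0 to 2 reads in Cond 3. SLC2A14, a glucose transporter gene 13.4 kb away, had a log2 fold change of -0.50 in Cond 2 (adjusted p = 0.0502, edgeR) and fell by 0.51 in Cond 3 (adjusted p = 0.0283, edgeR). Over the 20 nearest tested neighbours of the 10 members, 2 were lower and 5 higher in Cond 2, 3 were lower and 5 higher in Cond 3 and none passed in Cond 4. Of all genes, 10.1% were lower and 10.8% higher in Cond 2, and 18.8% and 19.5% in Cond 3.

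The genes nearest to FOXD3 on either side, ATG4C and ALG6, had log2 fold changes of -0.17 (adjusted p = 0.244, edgeR) and -0.19 (adjusted p = 0.286, edgeR) in Cond 2, where FOXD3 fell by 2.08. PATJ, 16.2 kb from L1TD1, was at 0.079 in Cond 2 (adjusted p = 0.474, edgeR) where L1TD1 fell by 0.73. ATP9A, 13.9 kb from SALL4, rose with it, by 0.60 in Cond 2 (adjusted p = 2.17e-04, edgeR) and by 0.31 in Cond 3 (adjusted p = 0.0276, edgeR). METAP2, whose 3′ end lies 0.721 kb from that of USP44 on the opposite strand, had a log2 fold change of -0.067 in Cond 2 (adjusted p = 0.441, edgeR) and rose by 0.15 in Cond 3 (adjusted p = 0.0322, edgeR).

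POLR3GL, the paralogue of POLR3G, fell in the serum medium, and no change of it was detected in the heated medium. It was at 11.1, 14.7 and 10.1 TPM in Cond 1, at 10.4, 15.8 and 11.6 TPM in Cond 2 and at 8.20, 5.85 and 4.99 TPM in Cond 3. Its Cond 3 libraries were below all others, and it fell by 0.93 on the log2 scale there (adjusted p = 0.00233, edgeR), while in Cond 2 its log2 fold change was -0.010 with an SE of 0.22 (adjusted p = 0.984, edgeR). The ratio of POLR3G to POLR3GL was 10.6 ± 2.21 in Cond 1, 7.50 ± 1.53 in Cond 2, 16.7 ± 4.09 in Cond 3 and 9.78 ± 1.96 in Cond 4 (SD, n = 3 each). The Cond 1 range overlapped those of the 3 other conditions, and the ratio in Cond 3 was 2.21-fold that in Cond 2 with no overlap (exact two-sided permutation test, p = 0.1). Among the 11 tested subunits of RNA polymerase III other than POLR3G, 1 was higher and 1 lower in Cond 2, and 6 were lower and 0 higher in Cond 3. Of all genes, 10.8% were higher and 10.1% lower in Cond 2, and 18.8% were lower and 19.5% higher in Cond 3. After POLR3GL the largest falls in Cond 3 were those of CRCP at 0.57, POLR3C at 0.45 and POLR3D at 0.38 on the log2 scale.

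**Figure D4:**
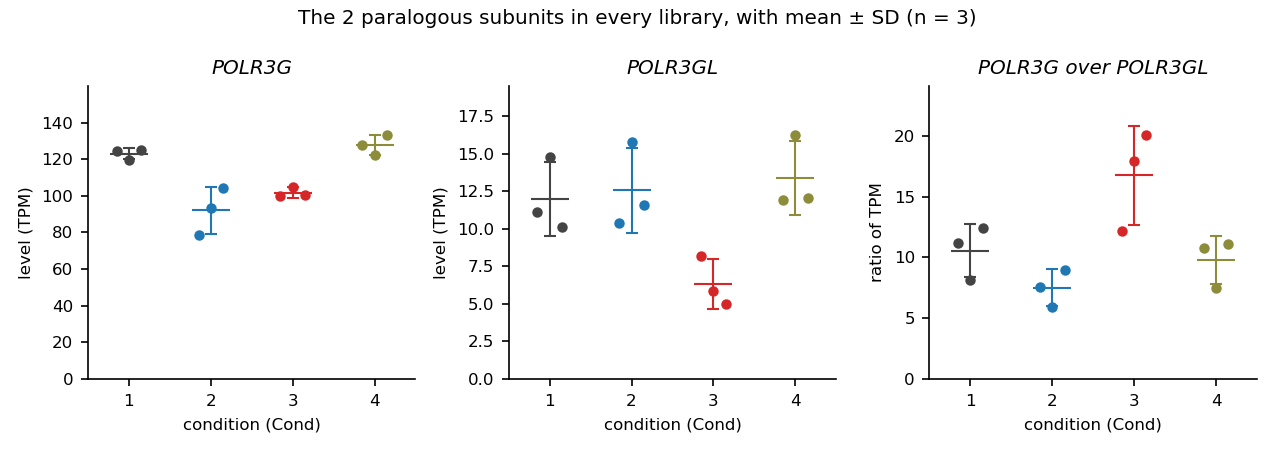
Levels of POLR3G and POLR3GL (TPM) and the ratio of POLR3G over POLR3GL in the 3 libraries of Cond 1 to Cond 4, with mean and SD. POLR3GL is lowest in Cond 3, where the ratio reaches 16.7 on average, while POLR3G is lower in both Cond 2 and Cond 3 than in Cond 1.

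Complexes in which the members act were described by gene lists, which were chosen with earlier results of these data known. Of all genes, 10.8% were higher and 10.1% lower in Cond 2, and 19.5% and 18.8% in Cond 3. Of 13 subunits of NuRD, the partner of SALL4, 2 were higher in Cond 2, MTA3 by 0.43 and CHD3 by 0.25 on the log2 scale, and 5 were higher in Cond 3, among them MTA2 by 0.64 and CHD3 by 0.49. None was lower against Cond 1. With limma on TPM, 6 subunits passed in Cond 2. Of 9 genes of PRC2 and CBFA2T2, a corepressor that binds PRDM14, 2 were higher and 1 lower in Cond 2, and 3 were higher and 3 lower in Cond 3. EZH2, the methyltransferase of PRC2, rose by 0.40 in Cond 2 (adjusted p = 0.00225, edgeR) and by 0.56 in Cond 3 (adjusted p = 3.22e-05, edgeR), and CBFA2T2 fell by 0.30 in Cond 3 (adjusted p = 0.0133, edgeR).

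Among the enzymes that act on H2B ubiquitin beside USP44, 12 were tested, and 4 were higher and 1 lower in Cond 2, while 4 were higher and 0 lower in Cond 3. The shares of all genes higher and lower were 10.8% and 10.1% in Cond 2, and 19.5% and 18.8% in Cond 3. USP49, another H2B protease, rose by 0.56 in Cond 2 (adjusted p = 1.31e-04, edgeR) and by 0.34 in Cond 3 (adjusted p = 0.00748, edgeR). RNF40, a subunit of the H2B ubiquitin ligase, rose by 0.24 in Cond 2 (adjusted p = 0.00499, edgeR), and its partner RNF20 had a log2 fold change of -0.021 there (adjusted p = 0.877, edgeR). None of the NuRD, PRC2, H2B or RNA polymerase III genes passed in Cond 4.

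The genes whose fold changes were most like those of NANOG were STPG3, SPRY4, OVGP1, RND3 and NANOGP8. They were the nearest of 10063 protein-coding genes by the largest difference from NANOG over the log2 fold changes in Cond 2, Cond 3 and Cond 4, which was 0.22 for STPG3 and 0.30 for NANOGP8. SPRY4, a feedback inhibitor of receptor tyrosine kinase signalling, had log2 fold changes of -0.94 in Cond 2 and -2.37 in Cond 3. RND3 had -1.35 and -2.14. NANOGP8 is a retrogene copy of NANOG, and reads of both cannot be fully separated. With limma on TPM, 3 of these 5 genes were kept.

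Some sets of markers of other cell types also differed between the conditions, in directions that varied with the set. The summed level of 10 neuroectoderm markers ranged over the libraries from 23.8 to 38.2 TPM in Cond 1, from 475 to 767 TPM in Cond 2, from 61.1 to 79.1 TPM in Cond 3 and from 30.7 to 53.9 TPM in Cond 4. Of the 8 that were tested, 5 were higher in Cond 2, led by SIX3 with a log2 fold change of 5.94 and LHX5 with 4.97, both factors of the anterior neural plate. In Cond 3, 2 were higher and 2 lower. In Cond 1, 5 of the 10 had a mean level of 1 TPM or more, so some tested genes may have passed the filter through Cond 2. With a filter of 1 TPM in all libraries, 2 were called in Cond 2. FOXD3, PRDM14, ZFP42, DPPA4, L1TD1 and POLR3G were lower in Cond 2 than in Cond 3, where this sum was lower, and the part of these markers in their levels was not tested.

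Of 10 surface ectoderm and trophectoderm markers, 4 were tested and all 4 were higher in Cond 2, led by TFAP2A and GATA3, and 3 were higher in Cond 3. Their sum ranged from 21.0 to 24.6 TPM in Cond 1, from 34.2 to 49.2 TPM in Cond 2 and from 30.6 to 35.5 TPM in Cond 3, and KRT7 made up between 70.0% and 96.2% of it in each condition. TFAP2B, KRT14, TP63 and CGA had at most 3 reads in every library. KRT7 alone had a mean level of 1 TPM or more in Cond 1. The other genes tested may therefore have passed the filter on low counts through conditions where they were higher, which limits the count of 4 in Cond 2. With a filter of 1 TPM in all libraries, 1 gene was called in Cond 2. Of 10 mesendoderm markers, 3 were tested, none passed in Cond 2 and TBXT was higher in Cond 3. Their sum stayed between 5.38 and 11.1 TPM over all 12 libraries, and FOXA2 and GATA4 had at most 3 reads in each. TBXT itself never exceeded 3 reads in Cond 1, so it may have passed the filter on low counts through another condition. Its call in Cond 3 was lost with a filter of 1 TPM in all libraries and with the 6 libraries compared alone.

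Of 10 fibroblast markers, 7 were tested, 3 of which were lower in Cond 2 and 4 higher and 1 lower in Cond 3. Their sum ranged from 424 to 456 TPM in Cond 1, from 265 to 315 TPM in Cond 2 and from 588 to 625 TPM in Cond 3, where NANOG was lowest. COL1A1 made up 72.0% of it in Cond 3, and the fibroblast genes LUM, DCN and FAP had at most 3 reads in every library. In Cond 1, 4 of the 10 had a mean level of 1 TPM or more, so some tested genes may have passed the filter through Cond 3. With a filter of 1 TPM in all libraries, 3 were called in Cond 3. THY1, which pluripotent cells also express, fell by 1.31 on the log2 scale in Cond 2 and by 1.56 in Cond 3. The part of these markers in the levels of the members was not tested.

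**Figure D5:**
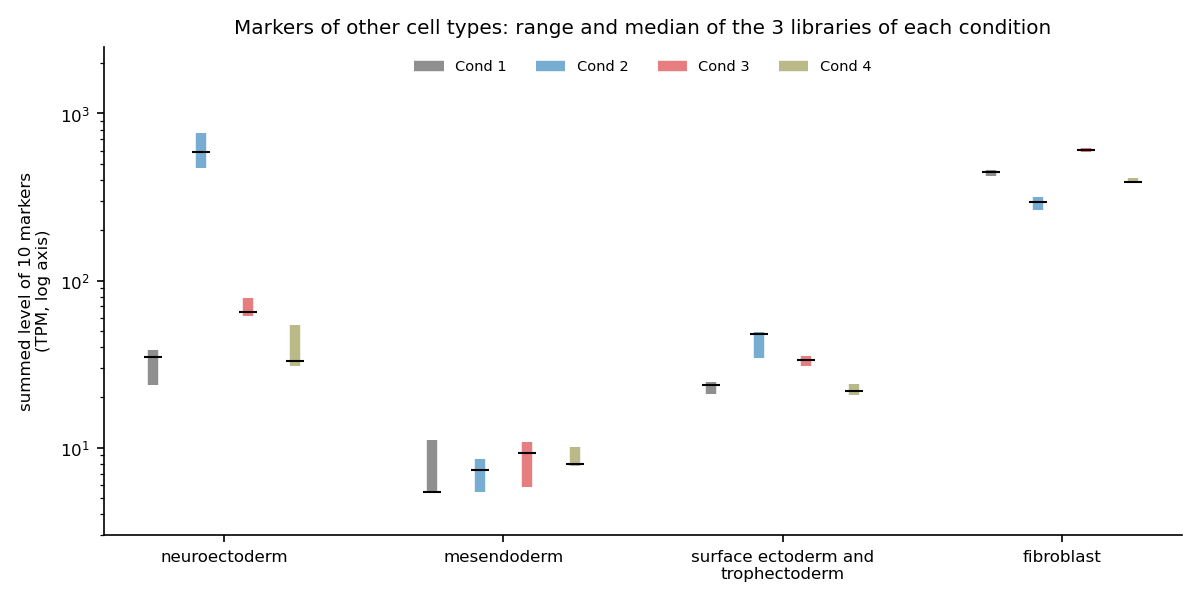
Summed level of 10 markers for each of 4 other cell types (TPM, log axis) in Cond 1 to Cond 4. Coloured bars span the 3 libraries of a condition and black ticks mark the median, which for neuroectoderm is 34.7 TPM in Cond 1 and 588 TPM in Cond 2.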

How the data were processed

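RNA-Seq counts and TPM of 12 libraries were used. The authors prepared strand-keeping poly(A) libraries, trimmed reads with cutadapt 4.1 and fastp 0.20.1, aligned them to GRCh38 with HISAT2 2.1.0 and counted them on genes with featureCounts, whose version, strand setting and treatment of multiple matches are not given in the sources used here. The authors deposited raw counts per gene, and TPM computed from these counts and gene lengths (recomputed here with a largest relative deviation of 1.79e-14). Of 58580 count lines, 5 held no whole gene row and were left out, and 2042 genes had TPM only. Genes passing filterByExpr (17747) were fitted with TMM normalization in edgeR 4.0.16 (R 4.3.3), one fit over the 12 libraries, with Benjamini-Hochberg adjustment over all genes and a threshold of 0.05. No column was left without a sample.

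The members and gene lists were chosen with earlier results of these data known. Named genes were the 10 members, up to 4 genes per list and comparison with the largest change among those called, marker genes near 0, the nearest tested protein-coding gene on each side of a member, and the 5 genes nearest to NANOG in profile with at least 5 TPM in Cond 1. Genes outside this rule are marked in the text or are markers and complex members from the lists. Promoters came from RefSeq, coordinates from GENCODE. Exact permutation tests on TPM were two-sided. On simulated counts for these genes, edgeR was tested before use. Alternatives were DESeq2 1.42.0, upper-quartile scaling, no filter, a filter of 1 TPM in all libraries, limma 3.58.1 on log2(TPM + 1) and log2(TPM + 0.1), the 6 libraries compared alone, a replicate block, pseudogene sums and each library left out. Values of some single list genes are not reported here.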

Additional observations from a re-analysis of the deposited data

How the results depend on the processing

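Of 572 values of single members under the alternatives, 524 kept their direction and side of the threshold, 28 changed sign, 16 lost a call and 4 gained one; the cause was not tested. Every change of sign was in a difference that was not called. With limma on log2(TPM + 1) or log2(TPM + 0.1), the log2 fold changes that changed sign were SALL4 in Cond 4 (0.0066 and 0.0067) and in Cond 3 against Cond 2 (-0.012 with both), FOXD3 in Cond 3 (0.0049 and 0.0051), ZSCAN10 in Cond 3 against Cond 2 (-0.050 with both) and USP44 in Cond 2 (0.032 with both). On that scale the median of all genes in Cond 2 was 0.072 and 0.084. With pseudogenes added, NANOG in Cond 4 was at -0.0060.

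Leaving out single libraries gave for Cond 4 ranges of -0.042 to 0.084 for PRDM14, -0.079 to 0.016 for ZSCAN10, -0.052 to 0.025 for SALL4, -0.014 to 0.042 for NANOG and -0.074 to 0.028 for ZFP42, for FOXD3 in Cond 3 -0.11 to 0.027, for USP44 in Cond 2 -0.11 to 0.079 and for ZSCAN10 in Cond 3 against Cond 2 -0.012 to 0.030. It gave 1 to 2 members higher in Cond 3, 1 to 2 members lower in Cond 3 against Cond 2, 1 to 3 H2B genes in Cond 3, 1 to 2 NuRD genes in Cond 2 and 3 to 6 in Cond 3, 1 to 3 RNA polymerase III genes in Cond 2, 0 to 1 mesendoderm genes in Cond 2 and in Cond 3 against Cond 2, and 2 to 4 surface ectoderm genes in Cond 2.

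In Cond 4, the genes called over all genes were 5 in the fit reported, 12 with DESeq2, 52 with no filter, 2 with either limma and 8 with the 6 libraries compared alone. With no filter, 1 member was higher in Cond 3, since ZFP42 had an adjusted p of 0.111, and 2 H2B genes passed there and 1 fibroblast gene in Cond 4. The filter of 1 TPM, which tests fewer markers, left 2 neuroectoderm genes called in Cond 2, in Cond 3 and in Cond 3 against Cond 2, 1 surface ectoderm gene in Cond 2 and in Cond 3 and 0 in Cond 3 against Cond 2, 0 mesendoderm and 3 fibroblast genes in Cond 3. With limma on log2(TPM + 1), 1 member was past a fold change of 2 in Cond 2, 1 RNA polymerase III gene and 6 NuRD genes passed in Cond 2, 2 neuroectoderm genes in Cond 3 and 1 mesendoderm gene in Cond 3 against Cond 2, and 3 of the 5 genes nearest to NANOG were shared. With log2(TPM + 0.1), 1 RNA polymerase III gene and 6 NuRD genes passed in Cond 2. With the 6 libraries alone, 2 neuroectoderm and 0 mesendoderm genes passed in Cond 3.

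Same-numbered libraries were at most weakly alike. Over 18 same-numbered pairs the correlation of deviations was between -0.087 and 0.12, with a median of 0.040, and above 0.1 in 1. Those with a Cond 4 library ran from 0.033 to 0.079. In every other condition, 4 of 12 libraries correlated best with their own number, and each Cond 4 library was among them. Weak pairing by replicate number is therefore not excluded, and the fit reported used no block. With the replicate number as a block, 3750 genes passed in Cond 2 and 6854 in Cond 3, against 3701 and 6811 without it, 6 members were lower in Cond 3 with USP44 added (adjusted p = 0.0376, edgeR), and no other member's call changed.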
